A study of Mus musculus with 6 samples.

Results

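Mitochondrial ribosomal protein genes were taken as every gene of the expression table whose symbol begins with Mrpl or Mrps and a number. There were 77 such genes among 22880, 48 named for the large subunit (Mrpl) and 29 for the small subunit (Mrps). All 77 passed the filter on low counts, which kept 12014 genes of the whole table, and the lowest recovered count of any of the 77 in any library was 151 reads. They lay on 17 mouse chromosomes, with 10 on chromosome 11 and 8 on chromosome 17.

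The RNA came from MC-38GFP cells, a line of mouse colon adenocarcinoma made to express green fluorescent protein, injected into the cecum wall and sorted back from the orthotopic tumors as living cells positive for the fluorescent protein and negative for CD45 and CD31. There were 3 Mock libraries and 3 HIF-1α-KD libraries. Both groups were transduced with pLKO.1-puro, a lentiviral vector for short hairpin RNAs, and the HIF-1α-KD cells carried the knock-down of HIF-1α, the oxygen-regulated subunit of the hypoxia-inducible factor. All libraries derive from 1 parental cell line, the cells had not been passaged through animals beforehand, and the labels give no day of collection. The labels do not say whether the libraries of a group came from separate tumors, so the p-values below measure the spread between these libraries only.

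The mitochondrial ribosome is built in the mitochondrial matrix and makes the few proteins encoded by mitochondrial DNA, which are core subunits of the respiratory chain and of ATP synthase. All of its proteins are encoded in the nucleus, translated in the cytosol and imported, and many have a bacterial counterpart while others occur only in mitochondria. Hypoxia-inducible factor shifts cells from respiration towards glycolysis, so the question put to these genes was whether their transcripts differed between tumor cells with and without the knock-down.

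Reads on genes were between 19845852 and 30809140 per library. Hif1a had normalized counts of 6914, 5424 and 4945 among the Mock and of 697.3, 3142 and 1928 among the HIF-1α-KD libraries, so the knocked-down transcript was lower in each HIF-1α-KD library. Of 8 epithelial markers 3 were tested, and their summed level over all 8 was 1.38 to 14.6 FPKM in Mock and 1.65 to 3.13 FPKM in HIF-1α-KD libraries, with Cdx2, which specifies intestinal epithelium, at 0 in 4 libraries. The 8 fibroblast and matrix markers, all tested, summed to 2159 to 5137 FPKM in Mock and 6744 to 9440 FPKM in HIF-1α-KD libraries. The 10 leukocyte markers, 9 tested, summed to 141 to 153 FPKM in Mock and to 88.4, 104 and 465 FPKM in HIF-1α-KD libraries. The 8 endothelial markers, 3 tested, summed to at most 6.71 FPKM in Mock and at most 5.57 FPKM in HIF-1α-KD libraries, and Emcn was at 0 in 3 libraries. The part of these differences in the results below was not tested, and fewer cells of a type cannot be told apart from less RNA per cell in bulk libraries.

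The promoters of 4 genes at the ends of the range of differences are shown because they differ in the motifs they hold. Each line gives the 250 bases before the start in RefSeq on GRCm38.p6, read 5′ to 3′ on the strand of the gene. In the GENCODE M21 annotation Mrps7 starts at 115603925 and Mrps6 at 92058270, so part of both windows lies inside the gene there. Capitals mark sites of nuclear respiratory factor 1, a regulator of nuclear genes for mitochondria, searched as GCGCA and GCGC on either side of any base, and the core of the hypoxia response element, searched as GCGTG and ACGTG, each on both strands. The regions are chr11:97315466-97315715 (plus strand) for Mrpl45, chr13:118387253-118387502 (minus strand) for Mrps30, chr11:115603890-115604139 (plus strand) for Mrps7 and chr16:92058086-92058335 (plus strand) for Mrps6.
Mrpl45: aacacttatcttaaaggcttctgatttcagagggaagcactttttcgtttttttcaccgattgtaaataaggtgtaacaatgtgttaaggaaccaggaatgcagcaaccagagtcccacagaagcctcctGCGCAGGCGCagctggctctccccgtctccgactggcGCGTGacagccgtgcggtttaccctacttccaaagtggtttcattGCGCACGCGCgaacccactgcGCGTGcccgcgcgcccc
Mrps30: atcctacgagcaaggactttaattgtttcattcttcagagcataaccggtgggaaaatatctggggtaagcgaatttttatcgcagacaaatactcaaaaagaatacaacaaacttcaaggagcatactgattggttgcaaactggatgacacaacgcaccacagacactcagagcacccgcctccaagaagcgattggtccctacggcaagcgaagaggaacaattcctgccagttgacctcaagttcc
Mrps7: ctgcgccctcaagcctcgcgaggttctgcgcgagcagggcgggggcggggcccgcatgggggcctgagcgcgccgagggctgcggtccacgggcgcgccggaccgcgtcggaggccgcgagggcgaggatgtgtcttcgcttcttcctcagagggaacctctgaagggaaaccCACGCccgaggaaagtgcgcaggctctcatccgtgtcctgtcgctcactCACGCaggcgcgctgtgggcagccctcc
Mrps6: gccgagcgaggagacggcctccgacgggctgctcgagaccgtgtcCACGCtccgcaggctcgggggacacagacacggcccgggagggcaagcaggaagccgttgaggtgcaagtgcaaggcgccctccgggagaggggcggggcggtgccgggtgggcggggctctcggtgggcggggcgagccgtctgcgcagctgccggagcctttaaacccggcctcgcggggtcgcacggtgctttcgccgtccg
The Mrpl45 window held 2 matches to the nuclear respiratory factor 1 site and 3 to GCGTG, of which 1 lies inside a nuclear respiratory factor 1 match. Mrps7 held 2 matches to GCGTG, Mrps6 held 1, and Mrps30 held no match to either motif.

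No gene of the mitochondrial ribosome passed the test between HIF-1α-KD and Mock cells after adjustment over all genes. Differences are log2 fold changes of normalized counts (reads divided by 1 factor per library) from limma, given with their standard error (SE), positive where HIF-1α-KD cells were higher, with Benjamini-Hochberg adjustment of the p-values. At an adjusted p-value under 0.05, 0 of the 77 genes were called by limma, 0 by edgeR and 0 by DESeq2, where limma called 0.391% of all genes tested, 0.00832% as higher and 0.383% as lower, edgeR 0.391% and DESeq2 2.36%. The lowest adjusted p of the 77 was that of Mrpl45 with each tool, 0.287 with limma, 0.270 with edgeR and 0.139 with DESeq2. At an unadjusted p-value under 0.05 each of the 3 tools called 1 of the 77, Mrpl45, which was lower, whereas limma called 5.69% of all genes lower and 7.04% higher.

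The differences were small and fell on both sides of 0. The log2 fold change was above 0 in 36 genes and below 0 in 41, and it ran from -0.46 for Mrpl45 to 0.38 for Mrps6. Its SD over the 77 genes was 0.17, against 0.47 over all genes tested, and its median size was 0.11 against 0.22. The median log2 fold change was -0.015 over the 48 large subunit genes and -0.018 over the 29 small subunit genes, against 0.021 over all genes. The 95% interval lay within a 2-fold change in either direction for 77 of 77 genes, as it did for 71.1% of all genes tested. It lay within a 1.5-fold change for 32 of 48 large and 23 of 29 small subunit genes, together 71.4%, against 32.1% of all genes tested, and 0 of the 77 were among the 3004 genes of lowest mean count. In the plot of differences by gene, the lines that reach farthest from 0 end at -0.82 and 0.86.

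**Figure D1:**
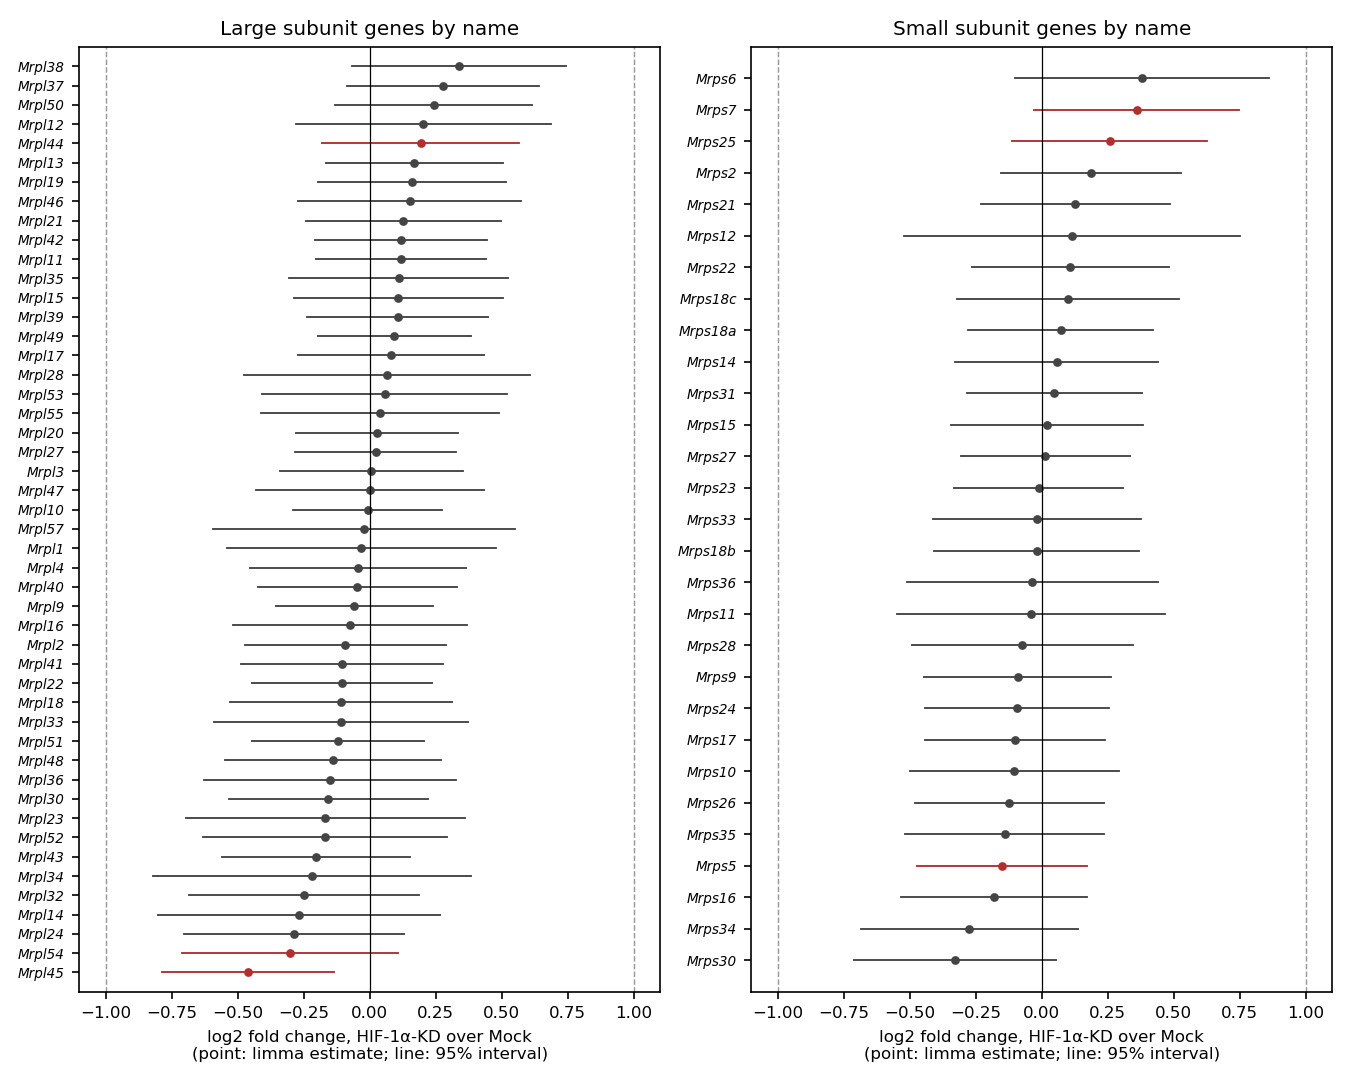
Log2 fold change of HIF-1α-KD over Mock (horizontal axis) of the 48 large subunit genes (left) and 29 small subunit genes (right), ordered by value, with points for limma estimates and lines for 95% intervals. Dashed lines mark a 2-fold change, no interval reaches them, and the 6 genes in red are those whose groups did not overlap.

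In 6 of the 77 genes (7.79%) each library of one group lay above each library of the other. Over all genes tested the share without overlap was 19.2%, with 10.4% higher and 8.75% lower in HIF-1α-KD cells. The 3 higher genes were Mrpl44, Mrps7 and Mrps25, and the 3 lower genes were Mrpl45, Mrpl54 and Mrps5. With 3 libraries a group the smallest p of an exact permutation test is 0.1, so no single gene could pass 0.05 in it. With fewer libraries to overlap, 13 genes were higher without overlap when Mock replicate 3 was left out (15.9% of all genes tested), and 14 were lower when HIF-1α-KD replicate 1 was left out (13.1% of all genes tested).

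Among large subunit proteins found only in mitochondria, Mrpl45, which sits near the exit tunnel and contacts the inner membrane, had the largest difference of the 77. Mrpl45 (ENSMUSG00000018882, chromosome 11, 97315716 to 97329920, GRCm38) had normalized counts of 3605, 2818 and 2986 among the Mock and of 2267, 2168 and 2369 among the HIF-1α-KD libraries. Its libraries did not overlap, and the mean was 3136 ± 414 (SD, n = 3) for Mock against 2268 ± 101 (SD, n = 3) for HIF-1α-KD. The HIF-1α-KD level was 0.727 times the Mock level (log2 fold change -0.46, SE 0.14, limma adjusted p = 0.287). With any one library left out its log2 fold change stayed between -0.53 and -0.36. Without HIF-1α-KD replicate 2 the lowest limma adjusted p of the 77 was 0.568. In that fit 0 of the 77 had an unadjusted p-value under 0.05, against 8.78% of all genes tested (12.7% with all libraries).

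Mrpl54, a mitochondria-specific protein of the large subunit, measured 848.2, 834.5 and 1173 among the Mock and 807.5, 706.2 and 773.9 among the HIF-1α-KD libraries in normalized counts. The groups did not overlap, but Mock replicate 3 stood well above the other Mock libraries, and the log2 fold change of -0.30 (SE 0.18, limma adjusted p = 0.525) did not pass the test. Without Mock replicate 3 the log2 fold change of Mrpl54 was -0.14.

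The opposite end of the large subunit was also held by mitochondria-specific proteins. Mrpl38 measured 1562, 1827 and 2349 among the Mock and 2673, 2241 and 2265 among the HIF-1α-KD libraries in normalized counts. Mock replicate 3 lay among the HIF-1α-KD libraries, and the log2 fold change was 0.34 (SE 0.18, limma adjusted p = 0.472). Mrpl37 had 1077, 1181 and 1471 among the Mock and 1565, 1420 and 1495 among the HIF-1α-KD libraries, again with Mock replicate 3 in the HIF-1α-KD range, and a log2 fold change of 0.28 (SE 0.16, limma adjusted p = 0.516). Mrpl50 had 1522, 1175 and 1296 among the Mock and 1352, 1650 and 1718 among the HIF-1α-KD libraries, and the overlap came from Mock replicate 1 (log2 fold change 0.24, SE 0.16, limma adjusted p = 0.580). Mrpl44, which has a fold related to ribonuclease III, had 477.6, 406.7 and 450.6 among the Mock and 541.3, 503.6 and 480.5 among the HIF-1α-KD libraries. Its groups did not overlap, by a margin smaller than the distance between libraries of a group, and its log2 fold change was 0.19 (SE 0.16, limma adjusted p = 0.661).

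Large subunit genes with a bacterial counterpart held smaller differences at both ends. The groups were without overlap in 0 of these 29, against 3 of 19 (15.8%) mitochondria-specific large subunit genes and 19.2% of all genes tested. Among small subunit genes it was 2 of 18 (11.1%) with a bacterial counterpart and 1 of 10 (10%) mitochondria-specific. The differences between these classes were not tested. Mrpl24 measured 2408, 1680 and 1847 among the Mock and 1374, 1630 and 1835 among the HIF-1α-KD libraries in normalized counts (log2 fold change -0.29, SE 0.18, limma adjusted p = 0.552). Mrpl14 had 698.0, 925.4 and 1044 among the Mock and 985.3, 646.3 and 605.3 among the HIF-1α-KD libraries (log2 fold change -0.27, SE 0.24, limma adjusted p = 0.669). In Mrpl24 Mock replicate 1 stood above all other libraries while HIF-1α-KD replicate 3 reached the other Mock libraries, and in Mrpl14 HIF-1α-KD replicate 1 lay among the highest libraries, so the groups overlapped in both. Without Mock replicate 1 the log2 fold change of Mrpl24 was -0.14. Mrpl12, the stalk protein that binds translation factors, had 1832, 2575 and 3356 among the Mock and 3070, 2825 and 2788 among the HIF-1α-KD libraries (log2 fold change 0.20, SE 0.21, limma adjusted p = 0.728). Its Mock libraries spanned the whole range of the HIF-1α-KD libraries, and without Mock replicate 1 the log2 fold change turned to -0.024.

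In the small subunit, proteins with a bacterial counterpart held the largest positive differences. Mrps6 measured 2158, 2164 and 2403 among the Mock and 3957, 2891 and 2168 among the HIF-1α-KD libraries in normalized counts, a log2 fold change of 0.38 (SE 0.21, limma adjusted p = 0.493). HIF-1α-KD replicate 1 was the highest library and HIF-1α-KD replicate 3 lay inside the Mock range, so the groups overlapped. The log2 fold change of Mrps6 was 0.16 without HIF-1α-KD replicate 1 and 0.60 without HIF-1α-KD replicate 3. Mrps7, which binds the small ribosomal RNA in the head of the subunit, had 1274, 1614 and 1894 among the Mock and 2106, 2029 and 1926 among the HIF-1α-KD libraries. The groups did not overlap, the lowest HIF-1α-KD library lay close to the highest Mock library, and the log2 fold change was 0.36 (SE 0.17, limma adjusted p = 0.423). Mrps2 had 1156, 1126 and 1208 among the Mock and 1149, 1391 and 1453 among the HIF-1α-KD libraries, with HIF-1α-KD replicate 1 inside the Mock range (log2 fold change 0.19, SE 0.15, limma adjusted p = 0.636). Mrps5 had 886.4, 826.8 and 835.9 among the Mock and 782.6, 778.2 and 735.8 among the HIF-1α-KD libraries, with a log2 fold change of -0.15 (SE 0.14, limma adjusted p = 0.694), and its tightly grouped libraries did not overlap. Mrps16 had 1032, 868.0 and 1061 among the Mock and 944.3, 829.8 and 830.5 among the HIF-1α-KD libraries, and the groups overlapped (log2 fold change -0.18, SE 0.16, limma adjusted p = 0.661).

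Among mitochondria-specific genes named for the small subunit, Mrps25 measured 466.6, 490.9 and 533.9 among the Mock and 649.9, 587.5 and 547.5 among the HIF-1α-KD libraries in normalized counts. Its groups did not overlap, and the log2 fold change was 0.26 (SE 0.16, limma adjusted p = 0.548). Mrps34 had 717.7, 715.8 and 796.0 among the Mock and 760.9, 545.6 and 556.8 among the HIF-1α-KD libraries (log2 fold change -0.27, SE 0.18, limma adjusted p = 0.571), where HIF-1α-KD replicate 1 lay inside the Mock range. Mrps30, whose protein sits in the large subunit despite its name, had 3074, 2111 and 2743 among the Mock and 1968, 2028 and 2251 among the HIF-1α-KD libraries. Only HIF-1α-KD replicate 3 reached the Mock range, above Mock replicate 2, and the log2 fold change was -0.33 (SE 0.17, limma adjusted p = 0.462).

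Some of these counts share exons with other genes of the GENCODE M21 annotation, and reads from those exons may not have been told apart. The study's methods name a stranded library kit, but whether the counting used strand is not given in the sources used here. Shared exon bases made up 63.4% (with Mapk8ip3 on the opposite strand) and 37.0% (with Nme3 on the same strand) of Mrps34, 69.8% of Mrps25 (with Nr2c2, opposite strand) and 26.3% of Mrpl24 (with Rrnad1, opposite strand). In all, 10 of the 77 shared at least 20% of their exon bases with another gene, the highest share being 88.0% in Mrpl53 (with Gm42688, same strand). The identifier under which the table lists Mrpl33 carries the name Gm43809 in GENCODE M21 and shares 64.0% of its exon bases with the gene called Mrpl33 there, so its count is uncertain. Mrpl23, Mrpl48 and Mrps36 have processed pseudogenes in that annotation, which were not analysed here, and their counts are uncertain because reads can match both copies.

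**Figure D2:**
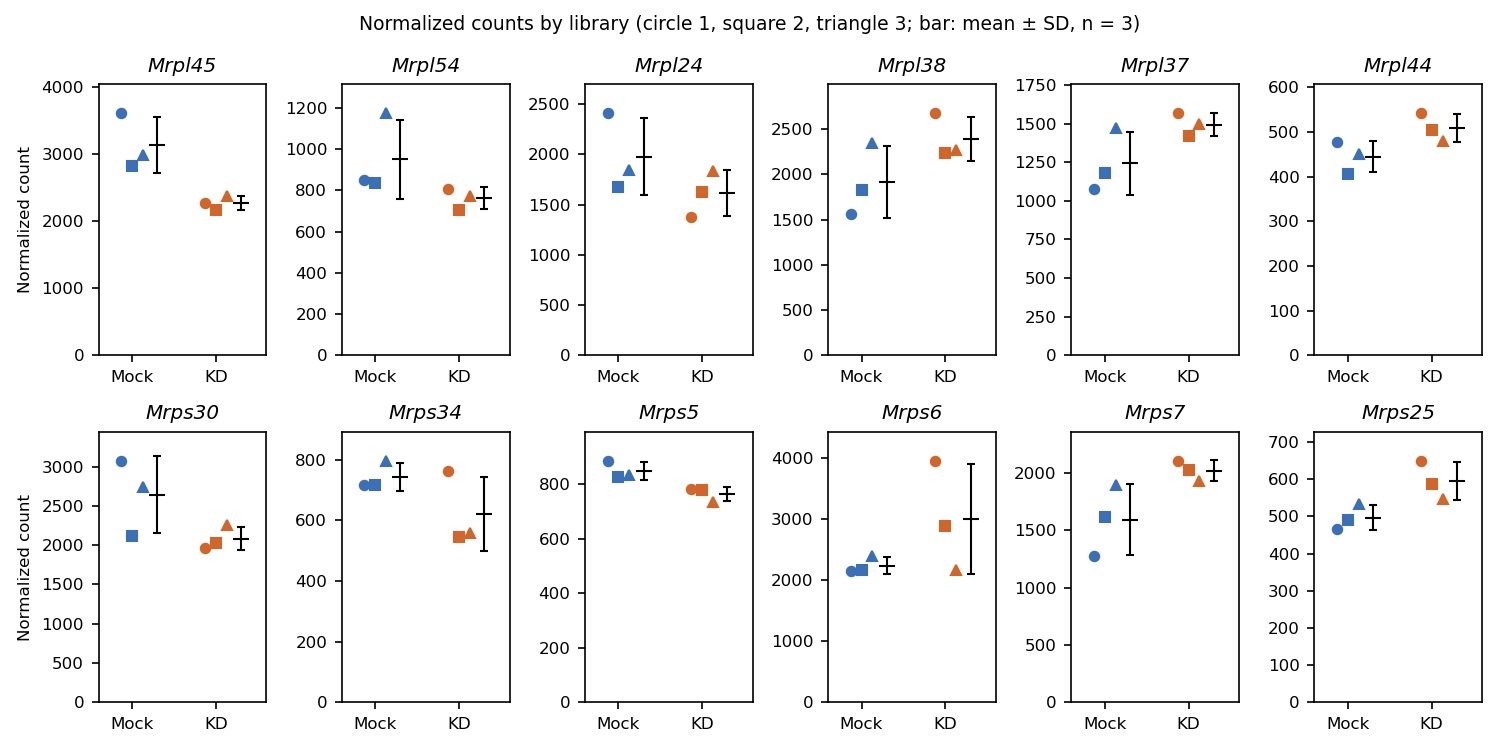
Normalized counts (vertical axes, from 0) of 12 genes in the 3 Mock libraries (blue) and 3 HIF-1α-KD libraries (orange, labelled KD), with circles, squares and triangles for replicates 1, 2 and 3 and black bars for the mean ± SD (n = 3). The groups do not overlap in Mrpl45, Mrpl54, Mrpl44, Mrps5, Mrps7 and Mrps25 and overlap in the other 6.

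The 3 genes of the Mrps18 family encode related versions of 1 bacterial protein, of which the Mrps18a protein belongs to the large subunit and the others to the small. Exon bases shared with another gene made up 30.5% of Mrps18b (with Gm16279, opposite strand) and 23.2% of Mrps18c (with Gm43511, same strand). The log2 fold changes were 0.071 for Mrps18a (SE 0.15), -0.020 for Mrps18b (SE 0.17) and 0.10 for Mrps18c (SE 0.19), with limma adjusted p-values of 0.876, 0.972 and 0.850. Mrps36, whose product is a component of the oxoglutarate dehydrogenase complex rather than of the ribosome, measured 193.3, 229.7 and 245.2 among the Mock and 238.9, 223.0 and 189.4 among the HIF-1α-KD libraries in normalized counts (log2 fold change -0.036, SE 0.21, limma adjusted p = 0.956). With genes sorted by the place of their protein instead of by name, the median log2 fold change was -0.015 over 50 large and -0.015 over 26 small subunit genes.

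Levels were compared between genes as FPKM, reads scaled to gene width and to library size, averaged over the 6 libraries. They ran from 5.46 FPKM for Mrpl57 to 146 FPKM for Mrpl20, a 26.7-fold range. Mrpl20 (146 FPKM), Mrps6 (138 FPKM), Mrpl18 (132 FPKM) and Mrpl42 (124 FPKM) were the highest, and Mrpl20 had 135.2, 135.5 and 154.0 FPKM in Mock and 144.3, 151.2 and 153.9 FPKM in HIF-1α-KD libraries. The order of these neighbours was not the same in each library, with Mrpl20 above Mrps6 in 4 of 6, Mrps6 above Mrpl18 in 3 of 6 and Mrpl18 above Mrpl42 in 4 of 6, while Mrpl20 lay above Mrpl42 in 6 of 6. Mrps21 (90.8 FPKM) and Mrps16 (66.5 FPKM) followed Mrps6 in the small subunit, while Mrps25 (9.20 FPKM) and Mrps26 (9.38 FPKM) were its lowest genes. The median was 40.1 FPKM over large and 33.2 FPKM over small subunit genes, against 13.8 FPKM over all genes tested. The range depends on the width used, which the authors' table gives as 1 value per gene. With the longest transcript in its place the levels of 76 genes ran from 3.66 to 126 FPKM, and Spearman's rho between both orders was 0.84. The order of the highest genes changed with it, to Mrps6 (126 FPKM), Mrpl42 (124 FPKM) and Mrpl20 (107 FPKM), and Mrpl18 had 56.3 FPKM. Mrps16 had 14.6 FPKM by this width, and the lowest gene was Mrps25 (3.66 FPKM) in place of Mrpl57.

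**Figure D3:**
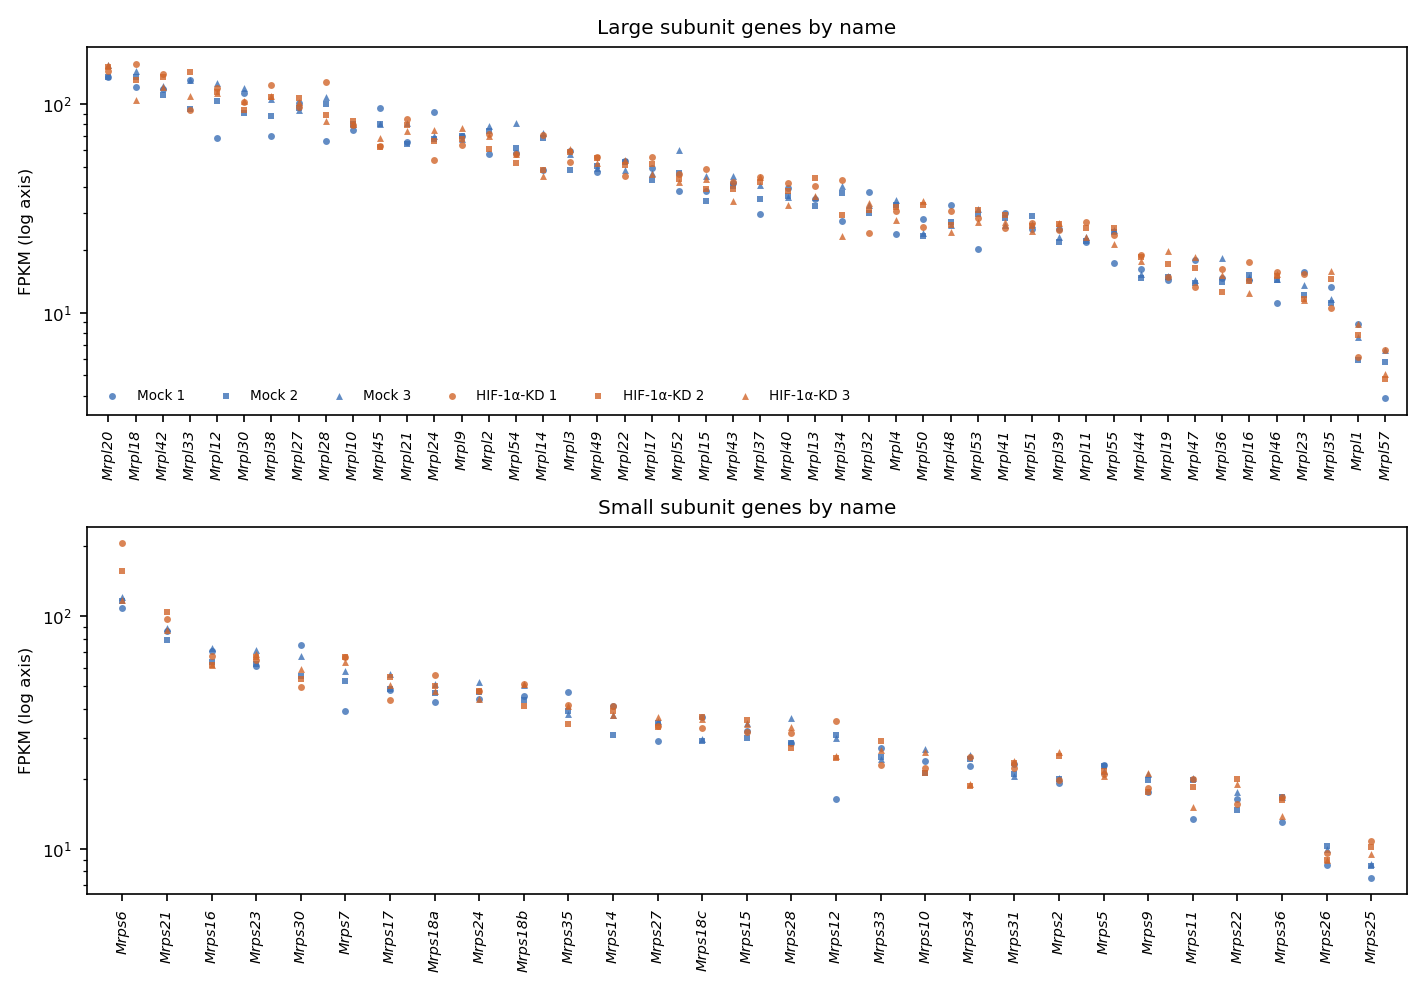
FPKM (vertical axis, log scale) of each large subunit gene (top, 48 genes) and small subunit gene (bottom, 29 genes) in the 6 libraries, in order of the mean, with Mock in blue and HIF-1α-KD in orange. The means run from 146 FPKM for Mrpl20 down to 5.46 FPKM for Mrpl57, with the points of a gene close together beside that range.

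Wider large subunit genes had higher log2 fold changes than narrower ones, given here as a description. Widths ran from 398 bases (Mrps21) to 3720 bases (Mrpl35), with medians of 1035 in the large and 1230 in the small subunit, against 1920 over all genes tested. Across the 48 large subunit genes, which share libraries and are not independent, Spearman's rho between log2 fold change and width was 0.42 (Pearson's r with log2 width 0.36), and across all genes tested rho was 0.19. The 24 large subunit genes with widths up to 1030 bases had a median log2 fold change of -0.10, with 9 above 0, and the 24 wider ones a median of 0.043, with 14 above 0. Across the 29 small subunit genes rho was -0.064, and the medians were -0.018 for the 15 narrower (6 above 0) and -0.039 for the 14 wider genes (7 above 0). The relation of the large subunit was weaker without HIF-1α-KD replicate 3 (rho 0.23), and after a correction of all genes for width rho was 0.0078 in the large and -0.40 in the small subunit. The difference between the subunits in this relation was not tested.

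The narrowest large subunit genes were Mrpl52 (461 bases, log2 fold change -0.17) and Mrpl33 (463 bases, -0.11), and the widest were Mrpl35 (3720 bases, 0.11) and Mrpl11 (2880 bases, 0.12). In the small subunit the narrowest were Mrps21 (398 bases, 0.13) and Mrps18c (482 bases, 0.10), and the widest were Mrps26 (2670 bases, -0.12) and Mrps25 (2420 bases, 0.26). None of these 8 genes passed the test. In the large subunit rho was 0.53 over the 29 genes with a bacterial counterpart and 0.18 over the 19 mitochondria-specific genes, a difference that was not tested. With the longest transcript as the width, a choice made after seeing the data, rho was 0.39 over 47 large and -0.34 over 29 small subunit genes. All genes tested showed medians of -0.052, 0.0012, 0.042 and 0.11 in 4 classes of about equal size from narrow to wide, and the 47 of the 77 genes in the narrowest class (up to 1290 bases) had a median of -0.040.

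**Figure D4:**
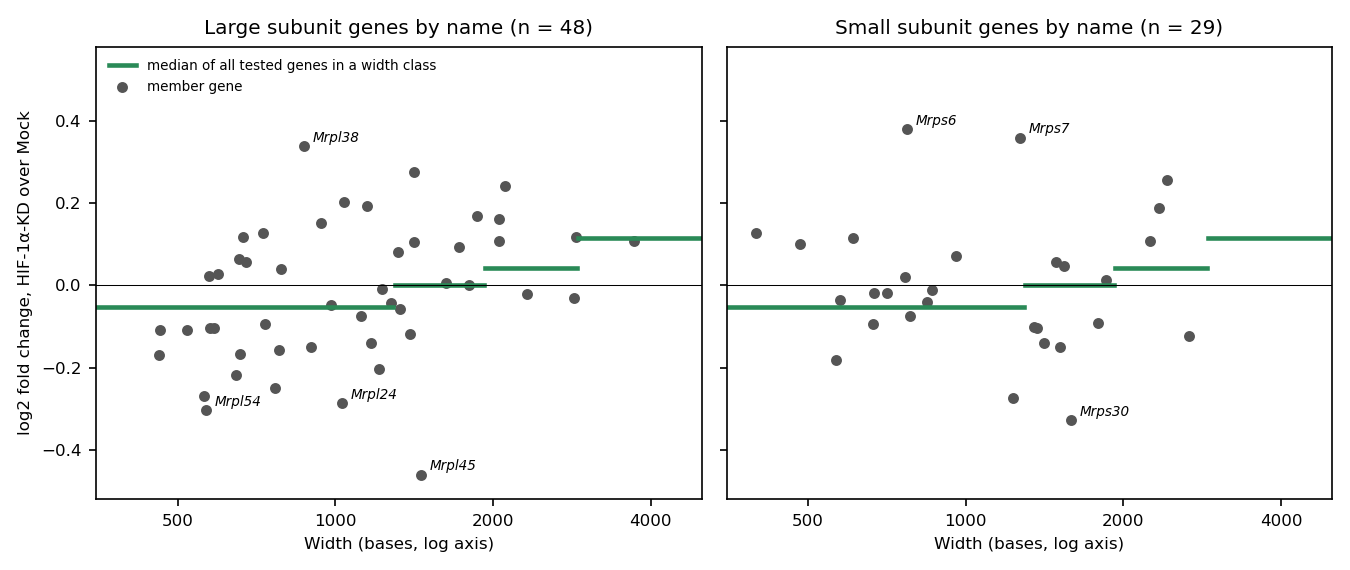
Log2 fold change of HIF-1α-KD over Mock (vertical axis) against gene width in bases (horizontal axis, log scale) for the 48 large subunit genes (left) and 29 small subunit genes (right), 1 point per gene. Green lines give the median of all tested genes in each of 4 width classes, from -0.052 to 0.11, and rho between both axes is 0.42 in the large and -0.064 in the small subunit.

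The HIF-1α-KD libraries lay within the range of the Mock libraries for both subunits. For each gene the deviation of a library was its log2 value minus the gene's mean over the 6 libraries. The median deviation of the large subunit was 0.0032, -0.074 and 0.097 among the Mock and 0.071, 0.018 and -0.047 among the HIF-1α-KD libraries. That of the small subunit was -0.00099, -0.11 and 0.13 among the Mock and 0.034, -0.012 and -0.011 among the HIF-1α-KD libraries. Both subunits were highest in Mock replicate 3 and lowest in Mock replicate 2, and the 3 HIF-1α-KD libraries lay between them. Mock replicate 3 was the highest library for 28 of the 77 genes and the lowest for 0, and Mock replicate 2 was the lowest for 25 and the highest for 1.

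The deviations also ran with GC content within single libraries. Spearman's rho between deviation and GC content across the 77 genes was -0.44, 0.50 and 0.49 among the Mock and 0.38, -0.27 and -0.40 among the HIF-1α-KD libraries. Over all genes tested it was -0.47, 0.22 and 0.25 among the Mock and 0.29, -0.085 and -0.047 among the HIF-1α-KD libraries. The sign differed between libraries of the same group. With a correction for GC content limma called 2 of the 77 genes at an unadjusted p-value under 0.05, Mrpl45 and Mrpl50, against 14.3% of all genes tested, and the lowest adjusted p was 0.212.

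**Figure D5:**
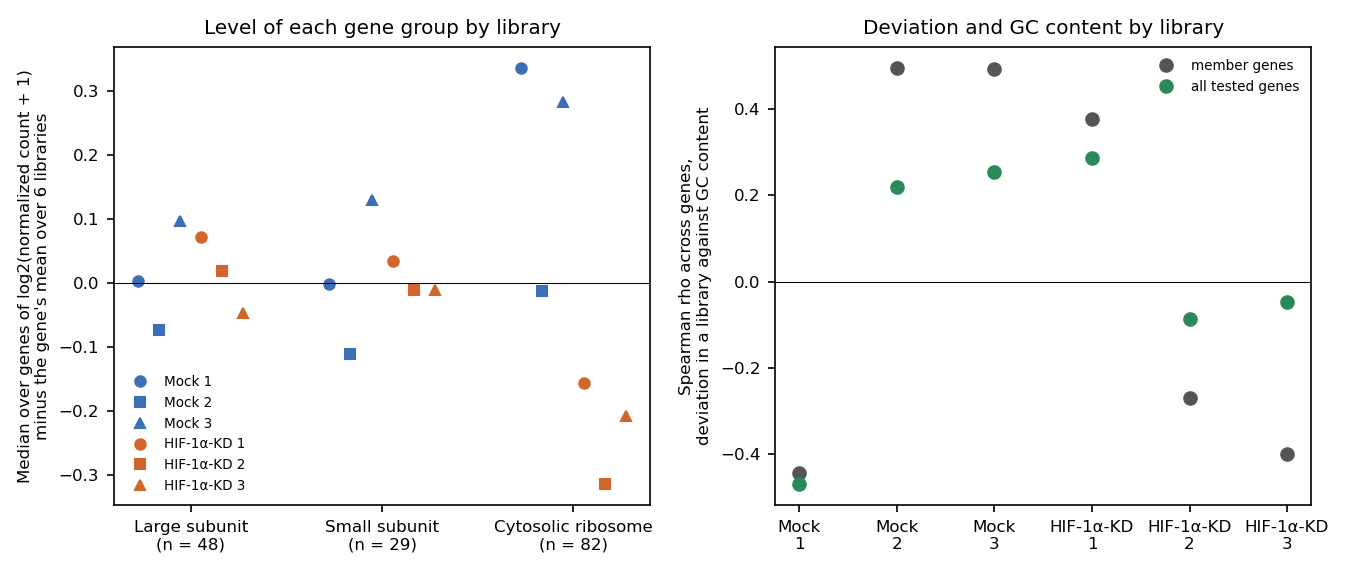
Left, the median deviation of log2 normalized count from each gene's mean over 6 libraries (vertical axis) for large subunit, small subunit and cytosolic ribosomal protein genes, 1 point per library. Right, Spearman's rho between deviation and GC content in each library for the 77 genes (grey) and all tested genes (green), which is negative in Mock replicate 1 (-0.44 and -0.47) and positive in Mock replicates 2 and 3.

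The proteins of the cytosolic ribosome, which makes all nuclear-encoded proteins, gave other values. Of 86 genes whose symbols begin with Rpl, Rps or Rplp and a number 82 were tested, and 79 of these had a log2 fold change below 0, with a median of -0.45. At an adjusted p-value under 0.05 limma called 0 of the 82 (lowest 0.241), edgeR 0 and DESeq2 3 (2.36% of all genes tested by DESeq2). With limma 55 had an unadjusted p-value under 0.05, each of them lower (5.69% of all genes tested), and 50 were lower (8.75% of all genes) and 2 higher (10.4% of all genes) without overlap. The median deviation of these genes was 0.34, -0.012 and 0.28 among the Mock and -0.16, -0.31 and -0.21 among the HIF-1α-KD libraries, so HIF-1α-KD libraries lay lowest, whereas those of the mitochondrial ribosome lay within the Mock range. Their median width was 694 bases, narrower than that of both mitochondrial subunits. These genes were chosen after the data were seen, and the difference from the 77 genes was not tested.

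Other genes of mitochondrial translation were counted from lists drawn up by function, and limma and edgeR called 0 of their genes at an adjusted p-value under 0.05 while DESeq2 called 1, Pprc1. Of the 6 mitochondrial ribosomal proteins with other names, 0 passed an unadjusted p-value under 0.05, and their median log2 fold change was -0.071. Dap3, a guanine nucleotide-binding protein of the small subunit, measured 3203, 3244 and 3243 among the Mock and 2938, 2688 and 3051 among the HIF-1α-KD libraries in normalized counts, lower without overlap (log2 fold change -0.16, SE 0.13, limma adjusted p = 0.630). Of 27 genes for assembly of the mitochondrial ribosome 26 were tested, and 1 was higher at an unadjusted p-value under 0.05, Wbscr16 (7.04% of all genes were higher at that level), which takes part in ribosomal RNA maturation (log2 fold change 0.40, limma adjusted p = 0.386), and edgeR and DESeq2 called 0. The 26 genes ran from -0.43 for Mettl15 to 0.62 for Mettl17. Of 16 entries for translation factors and related genes (15 genes, with Mtif3 listed under 2 identifiers), 1 was lower at that level (5.69% of all genes), Mtrf1, related to peptide release factors (log2 fold change -0.64, limma adjusted p = 0.382), and the highest was Lrpprc, which stabilizes mitochondrial messenger RNAs (log2 fold change 0.29, limma adjusted p = 0.420). In 6 of these 16 entries (37.5%, against 19.2% of all genes tested) the groups did not overlap, with Gfm1, Lrpprc and Taco1 higher and Mrrf, Mtrf1 and Oxa1l lower. In the other lists the groups did not overlap in 4 of 26 genes for assembly (15.4%), 1 of 6 with other names (16.7%), 1 of 14 for transcription and biogenesis (7.14%) and 0 of 7 messenger RNAs of mitochondrial DNA.

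Of 15 genes for mitochondrial transcription and biogenesis 14 were tested. Pprc1, a coactivator of nuclear respiratory factor 1, measured 877.7, 1532 and 1604 among the Mock and 2489, 2101 and 2418 among the HIF-1α-KD libraries in normalized counts. It was higher without overlap and at an unadjusted p-value under 0.05 (log2 fold change 0.85, SE 0.23, limma adjusted p = 0.245), the largest difference among the genes of these lists. Nrf1, which encodes nuclear respiratory factor 1 itself, had a log2 fold change of -0.030 (SE 0.14). Of the 13 messenger RNAs of mitochondrial DNA, 6 had at most 2.46 normalized counts in any library, although cells use all of them, and were not tested. Of the 7 tested, 6 had a log2 fold change above 0. The exception was mt-Co1 (-0.10), and mt-Cytb measured 179600, 99460 and 141500 among the Mock and 171800, 226800 and 241800 among the HIF-1α-KD libraries in normalized counts (log2 fold change 0.63, limma adjusted p = 0.371). It was past the unadjusted threshold, with overlapping groups.

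Features that the names did not select were counted in promoters and at neighboring starts. RefSeq promoters on GRCm38.p6 were found for 68 of the 77 genes and not for Mrpl4, Mrpl13, Mrpl15, Mrpl19, Mrpl38, Mrpl54, Mrps28, Mrps34 and Mrps35. In the 250 bases before the start, on either strand, 10 of 68 (14.7%) held the nuclear respiratory factor 1 site (GCGCA, any base, GCGC), against 3.86% of 27025 promoters. These 27025 promoters were not limited to genes tested here, whereas all 77 genes passed the filter on low counts. The core of ETS factors, CCGGAAG, was found in 16 (23.5%, against 7.05%), and that of YY1, AAGATGGC, in 4 (5.88%, against 1.59%). A hypoxia response core, ACGTG or GCGTG, which overlaps the E-box CACGTG and can lie inside the nuclear respiratory factor 1 site, was found in 38 (55.9%, against 38.6%). The 38 genes with a hypoxia response core had a median log2 fold change of -0.019, with 17 above 0, and the 30 without one a median of -0.0030, with 15 above 0. The shares were not tested, and a match is not a bound site.

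Some of the 77 genes start next to a gene on the opposite strand. This was counted for 76 of the 77 genes. Of these 76, 18 (23.7%) had the start of another protein-coding gene within 1000 bases upstream, on the opposite strand and read away from them. The share was 10.7% of 11931 tested protein-coding genes. All 18 partners were tested, and 8 had the same sign of log2 fold change as the ribosomal gene. Mrpl49 (0.093) starts 59 bases from Fau (-0.51), which encodes a protein of the cytosolic ribosome, and Mrps34 (-0.27) starts 29 bases from Eme2 (0.62), a subunit of a DNA nuclease. Mrps12 (0.11), the accuracy protein of the decoding site, starts 172 bases from Sars2 (0.010), the mitochondrial seryl-tRNA synthetase.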

How the data were processed

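RNA of tumor cells sorted from orthotopic MC-38GFP tumors was sequenced as 3 Mock and 3 HIF-1α-KD libraries, which were grouped by the knockdown in their labels. Per the study's methods, reads were trimmed and aligned with STAR, reads with very many alignments were dropped, genes were counted with featureCounts, and DESeq2 was the authors' test. The labels' processing notes list STAR and edgeR. The methods name GRCh38, whereas the labels name GRCm38 and the gene identifiers are those of mouse.

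A table of 22880 genes was deposited. The deposited normalized count is a signal, each gene's count divided by 1 factor per library. The authors also deposited FPKM, GC content as a fraction, and the width in bases, which was within 1% of the mean transcript length of GENCODE M21 for 83.7% of 21908 genes and for 54 of 76 member genes. The table also holds a log2 ratio, p-value, false discovery rate and cluster of the authors' own comparison, which were not used.

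Reads were recovered from the normalized counts, and 100% of values up to 300 reads were whole within 0.1 read. Reads on genes were 20836275, 25089536 and 21145429 for Mock and 30809140, 19845852 and 20539375 for HIF-1α-KD. Genes were filtered with filterByExpr of edgeR 4.0.16 (minimum count of 10). Because the values are normalized counts, the planned test for that unit was used: limma 3.58.1 (trend by mean level) on log2(normalized count + 1), two-sided, with Benjamini-Hochberg adjustment over 12014 genes. A fold change on that scale is slightly understated for low genes. Alternatives were edgeR and DESeq2 1.42.0 on recovered reads, other scaling, pseudocounts of 0.1 and 10, no filter, a block for replicate number, loess corrections for width and GC content (span of 0.5), and leaving out each library. The fits were tested on simulated data.

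The 29 genes named by rule are, for each subunit, the 4 with the highest and the 4 with the lowest log2 fold change, the 3 with the highest FPKM, the 2 widest and the 2 narrowest, and Mrps18a, Mrps18b, Mrps18c, Mrps30 and Mrps36. Mrpl44 is named because its groups did not overlap, and Mrpl57, Mrpl49, Mrps12 and genes of the other lists were named after their values were seen. The members, lists and motifs were chosen with earlier results of these data known. Positions and exons are from GENCODE M21 on GRCm38, and promoters from RefSeq on GRCm38.p6. Software was scipy 1.17.1, numpy 2.4.6, pandas 2.3.3 and matplotlib 3.10.9 on Python 3.11.15, and R 4.3.3.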

Additional observations from a re-analysis of the deposited data

How the results depend on the processing

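In no alternative did any of the 77 genes pass an adjusted p-value under 0.05. Below, a count is of genes at an unadjusted limma p-value under 0.05 unless overlap is named. A median change is the median log2 fold change of a subunit minus that of all genes tested. In the reported fit it was -0.036 in the large and -0.039 in the small subunit. The replicate numbers did not pair the libraries (correlations of deviations between same-numbered libraries -0.14, -0.12 and 0.023), and with a replicate block the adjusted count was 0 and the adjusted p of Mrpl45 0.379. Scaling by library total, which put the median of all genes at 0.077, gave 1 higher gene and 9 higher without overlap (9.03% and 13.2% of all genes). The width correction gave 2 higher genes, 9 higher and 1 lower without overlap (5.67%, 9.63% and 9.03% of all genes). It gave a rho with width of 0.0078 in the large and -0.40 in the small subunit, and a median change of 0.059 in the small subunit. These values of rho and of the median change were equal with the replicate block. The GC correction gave 1 higher gene (7.37% of all genes). With the replicate block added each correction gave 0 higher genes (9.98% and 13.8% of all genes in either direction for width and GC content). In each of these fits 1 gene was lower, Mrpl45. The shares of all genes that were lower were 4.36% with library totals, 5.78% with the width and 6.93% with the GC correction. Leaving out 1 library gave 0 to 3 higher and 0 to 3 lower genes (8.43% to 12.9% of all genes in either direction). Without overlap 3 to 13 were higher (13 without Mock replicate 3), against 13.5% to 17.6% of all genes. Lower without overlap were 3 to 14 (14 without HIF-1α-KD replicate 1), against 12.2% to 15.3% of all genes. The median change was -0.083 to 0.0021 (large) and -0.093 to 0.042 (small), and rho was 0.23 to 0.48 (large) and -0.17 to 0.077 (small). Signs turned for Mrps18b (0.037) and Mrps36 (0.020) under library totals, and under the width correction for Mrpl18 (0.038), Mrpl33 (0.052), Mrps18b (0.090) and Mrps36 (0.0999). Under the GC correction Mrpl20 turned to -0.025. Across the fits without 1 library, signs turned for Mrpl12 (-0.024 to 0.41), Mrpl20 (-0.034 to 0.10), Mrpl52 (-0.31 to 0.017), Mrpl33 (-0.29 to 0.0096), Mrpl18 (-0.27 to 0.051), Mrps18a (-0.013 to 0.15), Mrps18b (-0.096 to 0.096) and Mrps36 (-0.13 to 0.058). Without some library the log2 fold change moved by over 1.5 times for 25 of the 29 genes named by rule, the exceptions being Mrpl45, Mrps25, Mrps16 and Mrps5. The cause of these moves was not tested. No pseudogene carried a member name, so leaving such genes out gave no value. In the reported fit the 95% interval lay within a 1.5-fold change for 55 of the 77 genes.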
